A study of Homo sapiens with 20 samples.

Results

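The 8 AP-1 genes described here were the rows of the gene table whose symbol was FOS, FOSB, FOSL1, FOSL2, JUN, JUNB, JUND or BATF, out of 60719 genes in all. They were measured by RNA sequencing in 20 libraries of Jurkat, a line of human leukemic T lymphoblasts, and of JinB8, a somatic mutant of Jurkat that lacks CD47 at its surface. Each line gave 10 libraries. In each line untreated cells were sequenced once, at 1 h, and 1 library was made per time (1, 3 or 6 h) and treatment. The treatments were plating on antibodies to CD3 and CD28 (CD3+CD28), plating on both with thrombospondin-1 added (CD3+CD28+TSP1), and TSP1 alone. The untreated condition was not sampled at 3 or 6 h in these libraries, so time on the plate and time in the treatment cannot be told apart. TSP1, a secreted ligand of CD47, was added at 1 μg/mL, anti-CD28 was coated at 4 μg/mL, and all cells were plated in serum-free medium with insulin, transferrin, selenite and hydrocortisone. Each condition was sequenced once, and JinB8 is a single mutant line, so the loss of CD47 and other differences between the lines cannot be told apart. WT below stands for Jurkat and CD47- for JinB8. The study asked how CD47 and TSP1 shape gene expression during T cell activation.

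AP-1 is a pair of basic leucine zipper proteins that binds DNA as a dimer. Proteins of the JUN family can pair with themselves or with a FOS protein, whereas FOS proteins need a JUN partner. FOS, FOSB, JUN and JUNB are immediate early genes, which are transcribed within minutes of a stimulus without new protein synthesis, and their mRNAs are short-lived. In T cells AP-1 acts together with NFAT at cytokine genes after the T cell receptor and CD28 have been engaged. BATF is a FOS-like protein that pairs with JUN proteins and recruits IRF4 in lymphocytes.

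The promoters of 5 members are shown because each carries an element of the kind through which CREB, ATF and AP-1 proteins bind DNA; the windows of JUNB and BATF did not hold these letters. The 250 bases before the RefSeq start (GRCh38.p14) were read for 7 of the 8 members, and FOSL1 was not matched. On either strand they were searched for the CRE half-site TGACGT, for the AP-1 site TGANTCA, for the octamer TGACATCA, for the serum response CArG box and for the TATA sequence TATAAA. In JUND the full CRE, TGACGTCA, is formed by 2 overlapping half-sites on opposite strands. Matches are in capitals, each sequence runs 5′ to 3′ on the strand of the gene, and the CRE half-site is the match nearest the start in FOSL2 and JUND, whereas FOS and FOSB also carry TATAAA downstream of it.
FOS, chr14:75278578-75278827, plus strand: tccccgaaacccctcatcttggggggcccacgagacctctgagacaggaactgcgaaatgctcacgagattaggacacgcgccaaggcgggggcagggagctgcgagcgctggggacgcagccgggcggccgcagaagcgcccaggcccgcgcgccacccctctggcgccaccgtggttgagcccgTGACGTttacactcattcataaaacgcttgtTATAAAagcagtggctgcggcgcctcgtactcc
FOSB, chr19:45467746-45467995, plus strand: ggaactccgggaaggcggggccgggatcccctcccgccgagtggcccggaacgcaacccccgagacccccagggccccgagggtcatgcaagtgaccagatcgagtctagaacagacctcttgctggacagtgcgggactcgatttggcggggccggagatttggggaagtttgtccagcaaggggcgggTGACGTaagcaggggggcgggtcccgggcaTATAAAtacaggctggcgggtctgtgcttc
FOSL2, chr2:28392608-28392857, plus strand: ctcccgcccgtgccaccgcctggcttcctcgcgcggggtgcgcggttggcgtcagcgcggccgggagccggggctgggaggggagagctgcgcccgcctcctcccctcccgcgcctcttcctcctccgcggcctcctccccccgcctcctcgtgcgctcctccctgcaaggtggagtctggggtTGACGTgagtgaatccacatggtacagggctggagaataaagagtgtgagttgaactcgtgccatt
JUN, chr1:58784048-58784297, minus strand: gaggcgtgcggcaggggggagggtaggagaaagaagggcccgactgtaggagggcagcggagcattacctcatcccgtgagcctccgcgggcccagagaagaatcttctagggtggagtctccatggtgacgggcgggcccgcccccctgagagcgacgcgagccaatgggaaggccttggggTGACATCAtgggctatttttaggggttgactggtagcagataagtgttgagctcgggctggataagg
JUND, chr19:18281623-18281872, minus strand: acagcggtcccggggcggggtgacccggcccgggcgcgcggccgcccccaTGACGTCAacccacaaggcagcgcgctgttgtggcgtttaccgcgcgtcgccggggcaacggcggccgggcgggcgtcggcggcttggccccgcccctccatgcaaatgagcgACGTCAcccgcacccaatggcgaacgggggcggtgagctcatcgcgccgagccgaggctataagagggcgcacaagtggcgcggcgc

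The CRE half-site stood 64 to 59 bases before the RefSeq start in FOS, 60 to 55 in FOSB and 66 to 61 in FOSL2. The FOSL2 window (28392608 to 28392857) lies inside the gene as GENCODE version 44 places it, from 28392448. The FOSL2 element is thus upstream of the RefSeq start and downstream of the GENCODE start. In JUN the octamer stood 67 to 60 bases before the start. In JUND the full CRE lay 200 to 193 bases before the start and another half-site, on the opposite strand, at 87 to 82. JUNB held TATAAA at 31 to 26 bases and no other match, and BATF held none of the 5. Among 35116 promoters of the same length, 7.1% held the CRE half-site, 2.37% the octamer, 6.57% TGANTCA, 1.16% a CArG box and 10.7% TATAAA. No member held TGANTCA or a CArG box in this window, which says only that these letters were not there.

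The members lay on 5 chromosomes of GRCh38 in GENCODE version 44. FOS (ENSG00000170345, chr14:75278826-75282230) and BATF (ENSG00000156127, chr14:75522455-75546993) lay on the plus strand of chromosome 14. JUNB (ENSG00000171223, chr19:12791486-12793315) is a gene with 1 exon on the plus strand, and JUND (ENSG00000130522, chr19:18279694-18281622) and FOSB (ENSG00000125740, chr19:45467995-45475179) lay on the minus and plus strand of the same chromosome. FOSL2 (ENSG00000075426, chr2:28392448-28417317, plus strand), JUN (ENSG00000177606, chr1:58776845-58784048, minus strand) and FOSL1 (ENSG00000175592, chr11:65892049-65900573, minus strand) were alone on theirs.

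Between 16107921 and 31737616 counts were assigned to genes per library. Levels are given as CPM, the count divided by the library total and multiplied by a constant, scaled by the TMM factors of edgeR, and 16327 genes passed its low-count filter. CD47 was lower in CD47- cells (124 to 165 CPM) than in WT cells (253 to 372 CPM), so its mRNA was reduced and not absent. All 11 T lineage markers were at a mean of at least 1 CPM in both lines, with summed levels of 2090 to 2980 CPM in WT and 2060 to 2930 CPM in CD47- cells. Of 4 B lineage markers 1 reached that level in each line, summing to 34.1 to 54.2 CPM in WT and 4.36 to 10.4 CPM in CD47- cells. None of 5 myeloid markers did (sums up to 1.62 and 1.87 CPM). Of 5 epithelial markers 0 did in WT and 1 in CD47- cells (sums up to 2.81 and 3.78 CPM), and 2 of 4 fibroblast markers did in both (sums up to 6.69 and 12.3 CPM). No marker was at 0 in all libraries of a line. As a measure of library quality, the GC balance was taken as the median log2 deviation of the fifth of genes richest in GC minus that of the fifth poorest in GC, and it differed between libraries, with WT libraries at −0.48 to 0.142 and CD47- libraries at −0.34 to 0.462. It was higher at 6 h than at 1 h on average, at 0.101 against −0.249 in WT and 0.373 against −0.119 in CD47- cells. At 1 h the highest values were in WT cells given CD3+CD28+TSP1 (0.0773) and in untreated CD47- cells (0.125), which are taken up beside JUNB and JUND. The mitochondrial share of counts also moved with time. In WT cells it was 0.584% to 0.643% at 1 h and 0.38% to 0.423% at 6 h, without overlap. In CD47- cells it was 0.498% to 0.603% and 0.339% to 0.51%, which overlapped. Its part in the levels of the members was not tested. In bulk RNA, a lower share of expressing cells and less RNA per cell cannot be told apart.

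Of the 8 members, 7 passed the filter. FOSL1, which encodes the FOS family protein FRA-1, had 1 to 16 counts per library and at most 0.765 CPM, and 3 counts correspond to 0.0979 to 0.156 CPM in these libraries, so it was near the limit of detection and was not tested. Its counts at 1 h were 9, 16, 14 and 7 in WT and 16, 15, 12 and 11 in CD47- cells (untreated, CD3+CD28, CD3+CD28+TSP1 and TSP1), and at 6 h they were 1, 4 and 4 in WT and 7, 5 and 2 in CD47- cells.

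Compared per transcript length, as TPM, which divides counts by transcript length before scaling each library to the same total, over 10 libraries, JUND and JUN were the highest in WT cells at 18.7 ± 6.54 and 18.6 ± 9.88 (SD), followed by FOS at 17.4 ± 13.0 and JUNB at 15.3 ± 10.6. FOSB followed at 9.92 ± 10.2 TPM, then FOSL2 at 3.35 ± 1.94, BATF at 3.21 ± 1.70 and FOSL1 at 0.218 ± 0.148. In CD47- cells the order was FOS at 23.1 ± 7.45, JUN at 17.3 ± 5.21, JUNB at 14.9 ± 4.97, JUND at 9.25 ± 4.98, FOSL2 at 6.84 ± 2.67, BATF at 6.10 ± 2.55, FOSB at 4.42 ± 0.940 and FOSL1 at 0.237 ± 0.126 TPM. Each SD includes the differences between treatments and times, and neighbors in either order lay within the larger of their SDs of each other, with 3 exceptions, BATF against FOSL1 in WT cells and JUNB against JUND and FOSB against FOSL1 in CD47- cells. The order in WT cells changed with time, with JUN (28.7 TPM) and FOS (27.6) above JUND (23.7) at 1 h, and at 6 h JUND (14.05) the highest and BATF (5.54) above FOS (4.22). At each time JUND was among the 4 highest genes in WT cells and below FOS, JUN and JUNB in CD47- cells by mean TPM.

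**Figure D1:**
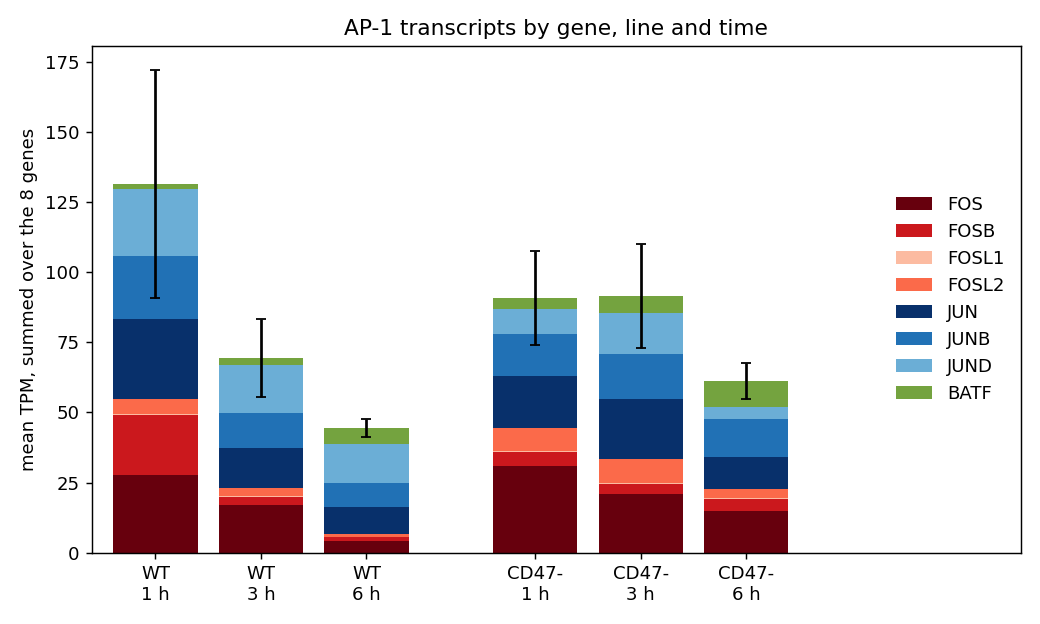
Mean TPM of the 8 genes, stacked, in each line at 1 h (4 libraries), 3 h and 6 h (3 libraries each), with the SD of the summed level as error bars. The summed level was highest in WT cells at 1 h and lowest in WT cells at 6 h, where the FOS family made up the smallest part.

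Summed over the 8 genes, AP-1 mRNA fell from 131.5 ± 40.7 TPM at 1 h (SD, n = 4) to 69.5 ± 13.8 at 3 h and 44.3 ± 3.26 at 6 h (n = 3 each) in WT cells. In CD47- cells it was 90.8 ± 16.8, 91.5 ± 18.5 and 61.2 ± 6.44 TPM. The FOS family (FOS, FOSB, FOSL1 and FOSL2) held 42.2% ± 6.25 of this sum in WT cells at 1 h and 15.3% ± 2.84 at 6 h, against 49.7% ± 5.71 and 37.3% ± 1.64 in CD47- cells. At 6 h the 3 WT libraries lay between 12.5% and 18.2% and the 3 CD47- libraries between 35.8% and 39.1%, without overlap. BATF, the least of the tested members at 1 h, went from 1.49% ± 0.510 of the WT sum to 12.5% ± 0.643, and in CD47- cells from 4.03% ± 0.414 to 15.2% ± 1.13. JUND made up 31.6% ± 3.07 at 6 h in WT, the largest share there, and 6.86% ± 1.17 in CD47- cells. These shares are descriptions of the libraries and were not tested.

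From 1 h to 6 h in WT cells, all 7 tested members changed. The 3 FOS family genes and the 3 JUN family genes fell, and BATF rose. FOS, the founding partner of JUN, was at 82.6 CPM with CD3+CD28, 97.8 with CD3+CD28+TSP1, 35.6 with TSP1 and 27.8 untreated at 1 h, and at 7.64, 8.71 and 5.07 CPM with the same 3 treatments at 6 h. The times did not overlap, and by edgeR the 6 h level was −3.27 on the log2 scale against 1 h (SE 0.177, adjusted p = 8.62e-09). FOSB, the closest relative of FOS, went from 89.4, 115, 67.7 and 75.6 CPM at 1 h to 11.8, 10.3 and 7.53 CPM at 3 h and 6.24, 4.54 and 5.23 CPM at 6 h. It had the largest change of the members, −4.07 (SE 0.174, adjusted p = 1.45e-09), and most of it, −3.20 (SE 0.164, adjusted p = 2.99e-08), was complete at 3 h. FOSL2, a FOS family member that lacks the strong activation domain of FOS and FOSB, went from 28.4 to 45.8 CPM at 1 h to 17.0 to 22.6 CPM at 3 h and 6.28 to 7.35 CPM at 6 h, a change of −2.46 (SE 0.133, adjusted p = 8.37e-09).

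Among the JUN family in WT cells, JUN, the strongest activator of the 3, was at 96.5, 152, 102 and 76.4 CPM at 1 h (CD3+CD28, CD3+CD28+TSP1, TSP1 and untreated) and at 33.5, 34.3 and 34.6 CPM at 6 h, a change of −1.76 (SE 0.153, adjusted p = 5.39e-07). JUNB, which can oppose JUN at some promoters, was at 39.2, 97.2, 37.6 and 19.6 CPM at 1 h, 36.7, 19.9 and 16.8 CPM at 3 h and 16.6, 18.99 and 17.3 CPM at 6 h, and fell by 1.64 on the log2 scale (SE 0.32, adjusted p = 0.000698). Its 1 h library with CD3+CD28+TSP1 was far above the other 3. JUND, the member that is usually expressed at a steady level, was at 43.9, 67.3, 41.8 and 38.2 CPM at 1 h and at 21.8, 21.7 and 22.1 CPM at 6 h, and fell by 1.21 (SE 0.167, adjusted p = 3.68e-05). BATF moved the other way, from 1.58 to 2.14 CPM at 1 h to 5.10 to 5.95 CPM at 6 h, a change of 1.57 (SE 0.146, adjusted p = 1.03e-06). Over all genes tested, 24.8% were lower and 25.7% higher at 6 h than at 1 h in WT cells, and the median log2 fold change of all genes was −0.0031. Between 1 h and 3 h, 6 members had fallen and BATF had risen, with 17.4% of genes lower and 16.9% higher. At 3 h the change of JUNB (−1.18, SE 0.319, adjusted p = 0.0109) rested on single WT libraries, since it was −0.68 (adjusted p = 0.0834) without CD3+CD28+TSP1 at 1 h, −0.79 (adjusted p = 0.0969) without CD3+CD28+TSP1 at 3 h and −1.07 (adjusted p = 0.0615) without TSP1 at 3 h. That of JUND (−0.65, SE 0.165, adjusted p = 0.00742) was −0.415 (adjusted p = 0.0609) without CD3+CD28+TSP1 at 3 h and −0.367 (adjusted p = 0.0421) without it at 1 h. That of BATF (0.46, SE 0.154, adjusted p = 0.0319) lost its call when any of 4 WT libraries was left out, namely those given CD3+CD28 or TSP1 at 1 h and those given CD3+CD28 or TSP1 at 3 h, with adjusted p from 0.0872 to 0.117.

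**Figure D2:**
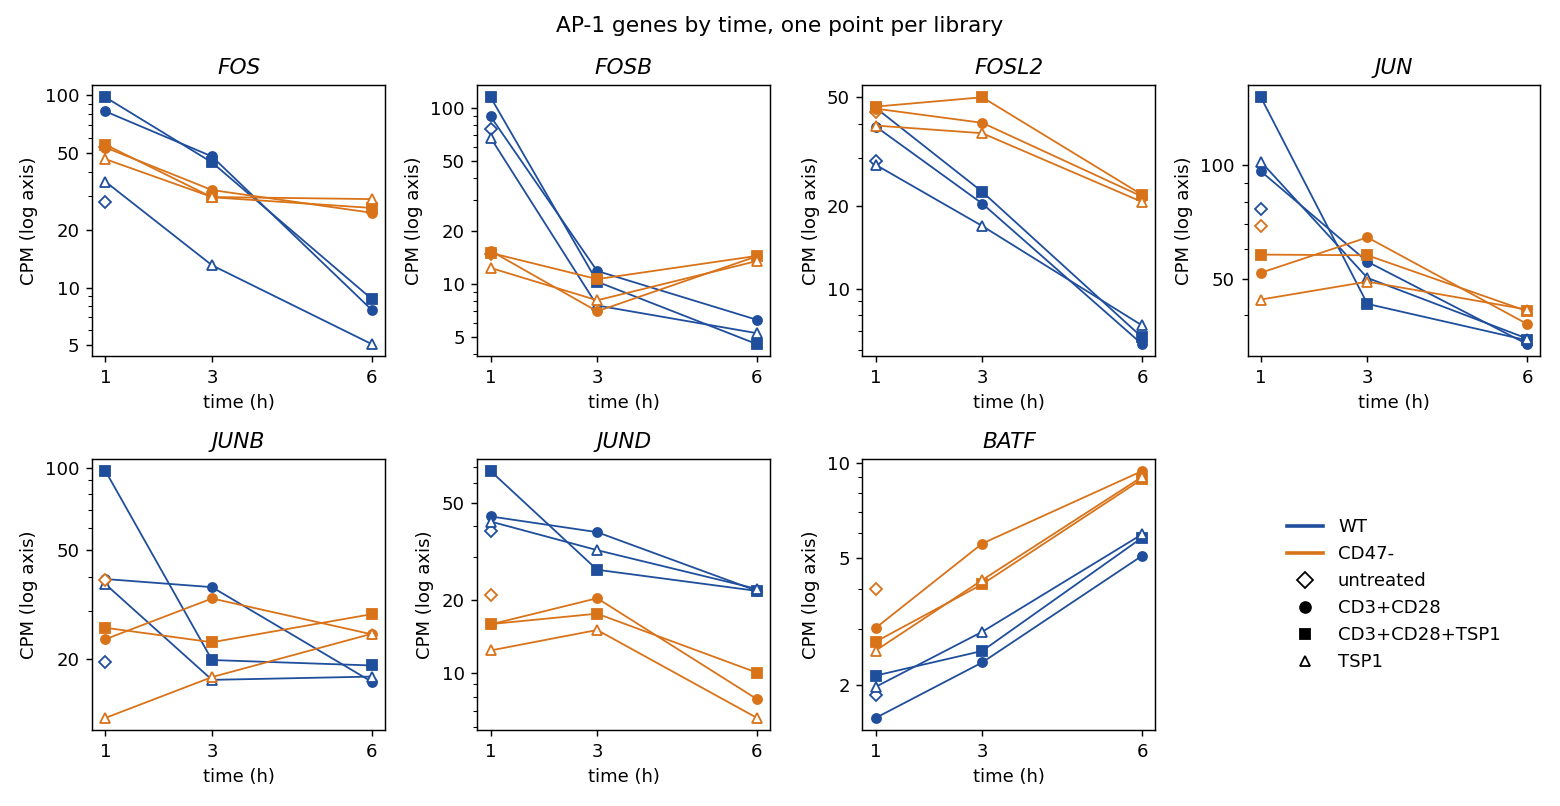
CPM of each tested member (log axis) against time in h, 1 point per library, WT in blue and CD47- in orange, with marker shapes for the 4 treatments and lines joining the libraries of a treatment. FOS, FOSB and FOSL2 fell further in WT than in CD47- cells, FOSB started far lower in CD47- cells, JUND was lower in CD47- cells at every time, and BATF rose in both lines.

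In CD47- cells 4 of the 7 members changed from 1 h to 6 h. FOS was at 53.6, 55.4, 46.6 and 54.1 CPM at 1 h (CD3+CD28, CD3+CD28+TSP1, TSP1 and untreated), 32.2, 29.5 and 29.6 CPM at 3 h and 24.5, 26.0 and 28.9 CPM at 6 h. It fell by 0.97 on the log2 scale (SE 0.157, adjusted p = 0.000135) without overlap between 1 h and 6 h. FOSB was at 15.4, 14.99, 12.3 and 14.9 CPM at 1 h, dipped to 6.97, 10.6 and 8.06 CPM at 3 h, and was back at 14.3, 14.4 and 13.5 CPM at 6 h. Its change at 3 h was −0.74 (SE 0.166, adjusted p = 0.00327) and that at 6 h −0.01 (SE 0.159, adjusted p = 0.948). FOSL2 was at 39.5 to 46.3 CPM at 1 h and 37.0 to 50.1 CPM at 3 h, so that these times overlapped, and at 20.8 to 22.1 CPM at 6 h, a change of −1.02 (SE 0.121, adjusted p = 7.97e-06). It thus fell later than in WT cells, where all 3 libraries at 3 h already lay below all 4 at 1 h.

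JUN in CD47- cells was at 51.8, 57.9, 43.99 and 69.02 CPM at 1 h, 64.4, 57.7 and 49.1 CPM at 3 h and 37.9, 41.0 and 41.4 CPM at 6 h, and its change of −0.34 (SE 0.151, adjusted p = 0.0702) did not pass the test. JUNB was at 23.7, 26.1, 12.2 and 39.1 CPM at 1 h and 24.7, 29.2 and 24.8 CPM at 6 h, which overlapped (log2 fold change 0.41, SE 0.317, adjusted p = 0.302). JUND was at 15.8, 15.9, 12.4 and 20.9 CPM at 1 h, 20.3, 17.5 and 15.03 CPM at 3 h and 7.83, 10.1 and 6.56 CPM at 6 h, and fell by 0.855 by 6 h (SE 0.182, adjusted p = 0.00128). BATF rose from 2.57 to 4.01 CPM at 1 h to 8.87 to 9.41 CPM at 6 h, by 1.715 on the log2 scale (SE 0.137, adjusted p = 2.09e-07). Thus 3 of 7 members were lower and 1 higher at 6 h in CD47- cells, beside 27% and 26% of all genes, and 2 were lower (FOS and FOSB) and 1 higher (BATF) at 3 h, beside 20.1% and 18%.

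**Figure D3:**
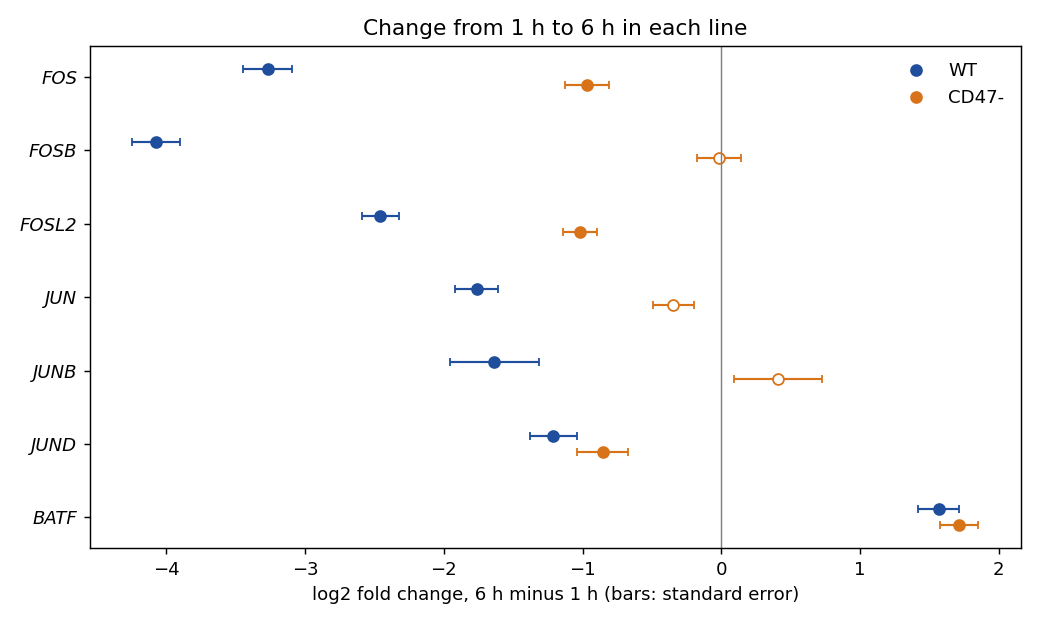
Log2 fold change from 1 h to 6 h (x axis) of each tested member in WT (blue) and CD47- (orange) cells, with the standard error as bars, filled where the adjusted p was under 0.05. The FOS and JUN family points of WT lie to the left of those of CD47- cells, whereas the BATF points lie together.

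The difference between the lines in this time course was tested as an interaction. At 6 h against 1 h, 5 of the 7 members fell less in CD47- cells or did not fall, and 0 fell more, beside 6.46% and 10.2% of all genes. The difference was 4.06 for FOSB (SE 0.232, adjusted p = 2.34e-07), 2.30 for FOS (SE 0.233, adjusted p = 3.11e-05), 2.04 for JUNB (SE 0.449, adjusted p = 0.00759), 1.44 for FOSL2 (SE 0.177, adjusted p = 0.000149) and 1.42 for JUN (SE 0.214, adjusted p = 0.000647), all on the log2 scale. For JUND it was 0.36 (SE 0.246, adjusted p = 0.366) and for BATF 0.15, with 2 SE on either side reaching from −0.25 to 0.55. Without any single library each of these 5 kept its call. At 3 h against 1 h, 4 members passed in the same direction and 0 in the other, beside 2.02% and 2.25% of all genes. They were FOSB (2.45, SE 0.230, adjusted p = 0.000125), JUN (1.38, SE 0.213, adjusted p = 0.00411), FOSL2 (0.86, SE 0.169, adjusted p = 0.0159) and JUND (0.92, SE 0.240, adjusted p = 0.0472). The call of JUND did not hold in 15 of the 20 fits that left out 1 library, with adjusted p up to 0.125, and that of FOSL2 had an adjusted p of 0.0646 without the 1 h and 0.0519 without the 3 h library of WT cells given CD3+CD28+TSP1.

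JUND and JUNB have transcripts rich in GC, 69.9% and 64.9%, and 99.8% and 97.1% of tested genes had a GC content at or below theirs. With each library corrected for its own trend on GC, an alternative chosen after the data had been seen, the interaction of JUND at 3 h was 0.10 (adjusted p = 0.814) in place of 0.92, and its change from 1 h to 3 h in CD47- cells went from 0.26 (adjusted p = 0.252) to −0.60 (adjusted p = 0.00564). The change of JUND from 1 h to 6 h in CD47- cells was −1.70 with this correction in place of −0.855, and that of JUNB −0.16 in place of 0.41. The difference of JUND between the lines kept its direction and its call at every time, at −1.40, −1.30 and −1.45 for 1, 3 and 6 h. The 2 libraries with the highest GC balance of their line at 1 h also held the highest JUNB and JUND of their line at 1 h. These were 97.2 and 67.3 CPM in WT cells given CD3+CD28+TSP1 and 39.1 and 20.9 CPM in untreated CD47- cells. Over all libraries of a line, which share the time course, JUND was not higher where GC balance was higher. Its correlation with GC balance was −0.395 in WT and −0.324 in CD47- cells, and that of JUNB −0.0682 and 0.588. Without these 2 libraries, the interaction of JUNB at 6 h was 1.53 (adjusted p = 0.0197).

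Between the lines over all 20 libraries, FOSB and JUND were lower in CD47- cells and the other 5 tested members were not called, beside 20.6% of genes lower and 19.8% higher. The log2 fold change of JUND was −1.31 (SE 0.228, adjusted p = 6.93e-05), and JUND was lower in CD47- cells in all 10 library pairs of the same treatment and time, with a range of 21.7 to 67.3 CPM (median 34.9) in WT and 6.56 to 20.9 CPM (median 15.4) in CD47- cells, without overlap. That of FOSB was −1.65 (SE 0.546, adjusted p = 0.0191), with 4.54 to 115 CPM (median 11.1) in WT and 6.97 to 15.4 CPM (median 13.9) in CD47- cells. Its direction was not shared by all pairs, since FOSB was higher in CD47- cells in 5 of 10. With a block for the 10 matched pairs, FOSB was at −0.76 (adjusted p = 0.212). When the 1 h CD3+CD28+TSP1 library of WT was left out, it was at −1.30 (adjusted p = 0.0552). FOSL2 and BATF were higher in CD47- cells in 10 of 10 pairs. Their log2 fold changes of 0.72 (SE 0.317, adjusted p = 0.0741) and 0.72 (SE 0.302, adjusted p = 0.0599) missed the threshold, and with the block for pairs they were 0.93 (adjusted p = 0.000207) and 0.73 (adjusted p = 4.54e-05). FOS, at 0.04, JUN, at −0.40, and JUNB, at −0.34, did not pass in either fit, and 6, 5 and 6 of 10 pairs were higher in CD47- cells.

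**Figure D4:**
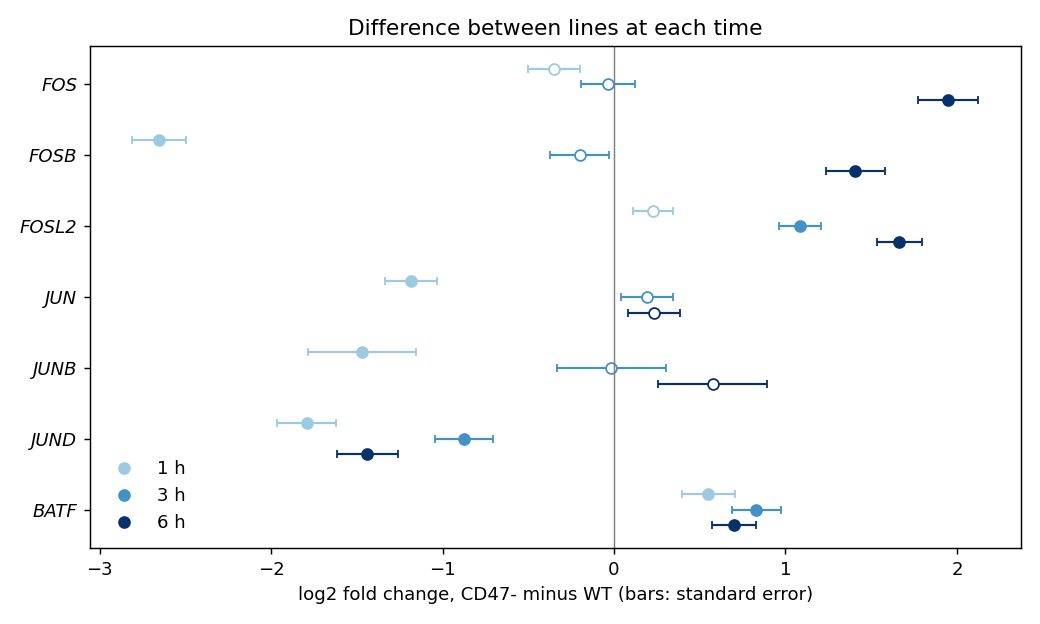
Log2 fold change of CD47- against WT cells (x axis) at 1, 3 and 6 h for each tested member, from light to dark blue, with the standard error as bars, filled where the adjusted p was under 0.05. FOSB lies at −2.65 at 1 h and at 1.41 at 6 h, whereas JUND stays to the left and BATF to the right at all 3 times.

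FOSB was lower in CD47- cells at 1 h and higher at 6 h, JUND was lower and BATF higher at all 3 times, JUN and JUNB passed the test at 1 h alone, FOSL2 at 3 h and 6 h, and FOS at 6 h alone. At 1 h, over the 3 treatments given at every time, FOSB (−2.65, SE 0.158, adjusted p = 1.41e-08), JUND (−1.79, SE 0.172, adjusted p = 1.62e-06), JUNB (−1.47, SE 0.316, adjusted p = 0.00192) and JUN (−1.18, SE 0.150, adjusted p = 2.37e-05) were lower in CD47- cells and BATF was higher (0.55, SE 0.153, adjusted p = 0.00975). That is 4 of 7 lower beside 20.8% of genes, and 1 higher beside 22.2%. Without the 1 h WT library given CD3+CD28+TSP1 JUNB was at −0.934 (adjusted p = 0.0174), and over the fits that left out 1 library 5 to 7 members were called. FOSB at 1 h was between 67.7 and 115 CPM in the 4 WT libraries and between 12.3 and 15.4 CPM in the 4 CD47- libraries, so the lines were apart in untreated and in treated cells. FOS and FOSL2 did not pass at 1 h, at −0.35 (adjusted p = 0.0802) and 0.23 (adjusted p = 0.137). The FOS values at 1 h and 3 h combine pairs of opposite direction, each of 1 library per line. On the log2 scale FOS was lower in CD47- cells with CD3+CD28 (−0.62 at 1 h, −0.57 at 3 h) and CD3+CD28+TSP1 (−0.81, −0.59). It was higher with TSP1 alone (0.39, 1.15). The untreated pair at 1 h, which is outside these values, was also higher (0.95). JUNB was also an exception among the pairs, since the untreated CD47- library, at 39.1 CPM, was above the untreated WT library, at 19.6 CPM.

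At 3 h, FOSL2 (1.085, SE 0.122, adjusted p = 7.19e-06) and BATF (0.83, SE 0.143, adjusted p = 0.000324) were higher and JUND (−0.875, SE 0.17, adjusted p = 0.000839) was lower in CD47- cells, beside 23.3% of genes higher and 23.2% lower. At 6 h, FOS (1.95, SE 0.176, adjusted p = 7.59e-07), FOSL2 (1.67, SE 0.133, adjusted p = 2.14e-07), FOSB (1.41, SE 0.172, adjusted p = 1.36e-05) and BATF (0.70, SE 0.130, adjusted p = 0.000509) were higher and JUND (−1.44, SE 0.180, adjusted p = 1.71e-05) was lower, so 4 of 7 were higher beside 22.8% of genes and 1 lower beside 24.5%. FOS at 6 h was 7.64, 8.71 and 5.07 CPM in WT and 24.5, 26.0 and 28.9 CPM in CD47- cells. All 3 tested FOS family genes were therefore higher in CD47- cells at 6 h. JUN, at 0.23 (2 SE from −0.07 to 0.54), and JUNB, at 0.58 (2 SE from −0.06 to 1.21), did not pass at 6 h. JUN was at 33.5 to 34.6 CPM in WT and 37.9 to 41.4 CPM in CD47- cells, and JUNB at 16.6 to 18.99 and 24.7 to 29.2 CPM. In each of the 3 treatments CD47- exceeded WT, by 0.18 to 0.25 for JUN and by 0.51 to 0.61 for JUNB on the log2 scale. The share of all genes whose libraries do not overlap between the lines at 6 h was not counted. The call of JUNB at 6 h depended on the low-count filter, with an edgeR adjusted p of 0.155 with it and 3.31e-06 without it. The log2 fold change was 0.58 in both. Without the filter members were also called in treatment comparisons where the main fit called 0, so this call is not read as a difference.

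The question of activation was asked by comparing CD3+CD28+TSP1 with TSP1 alone, for which there are libraries at all 3 times. In WT cells FOS was higher with the antibodies, at 97.8 against 35.6 CPM at 1 h, 44.8 against 13.1 CPM at 3 h and 8.71 against 5.07 CPM at 6 h. These are ratios of 2.75, 3.43 and 1.72, each from 1 pair of libraries. The log2 fold change was 1.39 (SE 0.169, adjusted p = 0.0143), and FOS was 1 of 15 genes called, 0.0919% of those tested. It was the sole member called. FOSB, FOSL2 and JUNB were at 0.42, 0.36 and 0.66 with adjusted p of 0.836, 0.743 and 1. The call of FOS was lost when any of 4 WT libraries was left out, namely CD3+CD28+TSP1 at 1, 3 or 6 h or TSP1 at 1 h, with log2 fold changes from 1.31 to 1.47 and adjusted p from 0.0671 to 0.12. In CD47- cells FOS was at 55.4 against 46.6 CPM at 1 h, 29.5 against 29.6 CPM at 3 h and 26.0 against 28.9 CPM at 6 h, a log2 fold change of 0.03 with 2 SE from −0.28 to 0.35 (adjusted p = 0.93). Of all genes, 0 (0%) were called by edgeR in CD47- cells and 2636 had an unadjusted p under 0.05, and DESeq2 called 0 there.

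The difference between the lines in this response of FOS was −1.35 (SE 0.230), with an unadjusted p of 4.44e-05 and an adjusted p of 0.386 by edgeR, so it did not pass over all genes, of which 0 were called and 1048 had an unadjusted p under 0.05. DESeq2 gave −1.32 with adjusted p = 8.75e-05, and edgeR gave −1.46 with adjusted p = 0.0134 when both TSP1 states were pooled, so the call depends on the model. Over its alternatives the difference stayed between −1.58 and −1.10 when 1 library was left out.

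Without TSP1, activation could be compared with untreated cells at 1 h only. FOS was at 82.6 CPM with CD3+CD28 and 27.8 CPM untreated in WT cells, and at 53.6 and 54.1 CPM in CD47- cells. JUNB was at 39.2 and 19.6 CPM in WT and at 23.7 and 39.1 CPM in CD47- cells. EdgeR called 0 genes in WT (1359 with an unadjusted p under 0.05), 0 in CD47- cells (657) and 0 in the difference between the lines (1360). All 7 members had a negative difference between the lines, from −2.30 to −0.24, with adjusted p from 0.591 to 0.865, beside a median of 0.0159 over all genes, and each rests on 1 untreated library per line. These libraries stood apart in GC balance, since the untreated WT library was the lowest of all 20, at −0.48, and the untreated CD47- library the highest at 1 h, at 0.125. DESeq2 called 7 genes in WT cells and 11 in the difference between the lines, 1 member in each, and 2 genes in CD47- cells, without a member.

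TSP1 added to activated cells gave 0 called genes in WT (366 with an unadjusted p under 0.05), 0 in CD47- cells (1771) and 0 in the difference between the lines (393). DESeq2 called 1 gene, 0 and 0, and no member in any of the 3, and limma voom called no member either. The members' log2 fold changes lay between −0.03 and 0.24 in WT and between −0.22 and 0.17 in CD47- cells. JUNB was at 97.2 with and 39.2 CPM without TSP1 at 1 h in WT cells and at 19.9 and 36.7 CPM at 3 h, so its direction turned between times. TSP1 alone against untreated cells, at 1 h, also gave 0 called genes in both lines by edgeR (1165 and 1406 with an unadjusted p under 0.05), and DESeq2 called 1 and 3, without a member. In WT cells 6 of 7 members had a positive fitted log2 fold change for TSP1 against untreated cells, from −0.04 for FOSB to 1.13 for JUNB. The fit also draws on the TSP1 libraries of 3 h and 6 h. In the 1 h libraries themselves FOSL2 was slightly lower with TSP1, at 28.4 against 29.2 CPM. In CD47- cells all 7 members were lower with TSP1 than in the untreated library, from −1.37 to −0.08 beside a median of 0.0358 over all genes, and 0 were called. The untreated library had the highest GC balance at 1 h and the TSP1 library, at −0.34, the lowest of its line, and the lowest values were those of JUNB (−1.37) and JUND (−0.77), whose transcripts are rich in GC. With the GC correction 0 members were called in either of these comparisons with untreated cells, and the part of GC balance in the direction of the single members was not tested.

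The isoform table was used to see which transcripts carried these values. JUNB has 1 transcript model, and JUN-201, BATF-201, JUND-201 and FOS-201 held 99.6%, 99.9%, 95.1% and 83.7% of the counts of their gene. FOSL2 was divided between the leading FOSL2-201 (62.9%) and a minor isoform (35.9%). Of 18 member isoforms tested, 10 were lower and 1 higher at 6 h than at 1 h in WT cells, beside 14.9% of all isoforms called in either direction, and 3 were lower and 1 higher in CD47- cells, beside 17.3%. Between the lines 1 of 18, JUND-201, was called (−1.27, SE 0.232, adjusted p = 0.000487), beside 15.1%. With the block for pairs 4 were called, but the 15.1% belongs to the fit without the block, so this count cannot be read against it. Both FOSL2 isoforms fell in WT cells, the minor one by 3.16 (SE 0.509, adjusted p = 0.00222) and FOSL2-201 by 2.06 (SE 0.237, adjusted p = 0.000298). In CD47- cells the minor isoform fell by 1.65 (SE 0.465, adjusted p = 0.0349), and FOSL2-201, at −0.48 (SE 0.226, adjusted p = 0.182), did not pass. The share of FOSL2-201 was 67.4% in WT and 63.3% in CD47- cells, a mean difference of −4.14 percentage points over 10 pairs (SD 16.2, exact sign-flip test, two-sided, adjusted p = 0.98 over the 3 genes tested). FOSB-201 and the leading FOSL1 isoform differed by −0.58 (SD 28.0) and −0.76 (SD 64.0) points with the same adjusted p by that exact test. The wide spread limits what these shares can show.

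FOSB counts were spread over 13 transcript models, of which the most abundant, FOSB-201, held 33.4%. Its share was 0 in some libraries of both lines, up to 49.9% in WT and 43.2% in CD47- cells, so the division of FOSB counts among models is uncertain. FOSB-211 and FOSB-212 lack 140 bases that FOSB-201 keeps (chr19:45472707-45472846), which is the splice form known as ΔFosB, a shorter protein without the C-terminal activation domain. Together they held 7.88% to 13% of FOSB counts in the 4 WT libraries at 1 h, where 1506 to 2576 counts per library were available. In CD47- cells at 1 h they held 0% to 20.6% of 302 to 441 counts. Over all libraries of a line and time the pooled share was 9.66%, 16.8% and 6.34% in WT and 8.6%, 8.94% and 13% in CD47- cells at 1, 3 and 6 h. The libraries of the lines overlapped at each time.

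The genes whose pattern over the 20 libraries was most like that of each member, with each line centred on its own mean, were found among 14284 genes. For FOS they were CSRNP1 (r = 0.973), AC020916.1 (0.967) and NR4A1 (0.965), of which CSRNP1 and NR4A1 are themselves induced early after T cell receptor signals. For FOSB they were YARS1 (0.937), FBXO32 (0.93) and KIT (0.924), and for FOSL2 they were NFE2L2 (0.967), EIF1 (0.964) and NR4A3 (0.961). For JUN they were CEBPB (0.949), HIC2 (0.943) and UBALD1 (0.94), for JUNB AKT1 (0.879), EEF2 (0.87) and CITED2 (0.857), and for JUND SLC16A3 (0.959), PHF21B (0.934) and CDT1 (0.929). BATF was followed most closely by C20orf27 (0.985), TIMM13 (0.984) and NOC2L (0.981). The libraries share the time course, so these values describe likeness only. All 21 names were kept with a pseudocount of 1 in place of 0.5, and 5 of 21 when the lines were not centred.

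The members were also correlated with each other within each line, as a description over libraries that share the time course and with no test between the lines. Over the 10 WT libraries FOSB and JUN had r = 0.953, JUN and JUND 0.972, FOS and FOSL2 0.93, and FOSL2 and BATF −0.958. Over the 10 CD47- libraries FOSB and JUN had r = −0.286, opposite in sign to WT cells. Other pairs also turned between WT and CD47- cells. They were FOSB with FOSL2 (0.886 and −0.22) and with JUND (0.886 and −0.363), FOSL2 with JUNB (0.723 and −0.0517), and BATF with JUNB (−0.576 and 0.365) and with FOSB (−0.843 and 0.0054). The remaining pairs kept their sign, among them in CD47- cells FOS and FOSL2 (0.686), JUN and JUND (0.918), FOSL2 and JUND (0.901) and FOSL2 and BATF (−0.886). The correlation with the GC balance of the library was highest for BATF, at 0.794 in WT and 0.831 in CD47- cells. With the GC correction its change from 1 h to 6 h was 1.36 and 1.37. GC balance was itself higher at 6 h in both lines, so its part and that of time cannot be told apart.

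Other genes of the pathway were taken from lists. Of 13 other bZIP partners of AP-1, 11 were tested, and in WT cells 5 were lower and 2 higher at 6 h than at 1 h, beside 24.8% and 25.7% of all genes, with a median log2 fold change of −0.0196 beside −0.0031 over all genes. ATF3, a stress-induced repressor, fell by 3.20 (SE 0.12, adjusted p = 7.83e-10), MAFF by 1.99 (SE 0.185, adjusted p = 1.03e-06), JDP2, which represses AP-1, by 1.64 (SE 0.129, adjusted p = 2.17e-07) and ATF4 by 0.99 (SE 0.115, adjusted p = 8.1e-06). In CD47- cells 4 were lower and 4 higher, beside 27% and 26%, among them ATF3 at −0.83 (SE 0.108, adjusted p = 1.79e-05) and BATF3, a relative of BATF, at 0.99 (SE 0.129, adjusted p = 1.9e-05). At 6 h, 7 of 11 were higher and 3 lower in CD47- than in WT cells, beside 22.8% and 24.5%, with a median of 0.713. They included JDP2 (1.94, SE 0.128, adjusted p = 3.24e-08), ATF3 (1.87, SE 0.12, adjusted p = 2.41e-08) and BATF3 (1.27, SE 0.131, adjusted p = 2.74e-06).

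Of 10 transcriptional regulators of FOS and JUN, all tested, 0 were higher and 4 lower in CD47- cells over 20 libraries, beside 19.8% and 20.6% of all genes, with a median of −0.329 beside −0.00659 over all genes. At 1 h 0 were higher and 4 lower, beside 22.2% and 20.8%, and the 4 were MEF2A (−0.81, SE 0.0635, adjusted p = 2.39e-07), ELK1 (−0.56, SE 0.0998, adjusted p = 0.000423), ELK3 (−0.77, SE 0.244, adjusted p = 0.0198) and CREM (−0.39, SE 0.133, adjusted p = 0.0312). ELK1 and ELK3 are partners of serum response factor (SRF) at CArG boxes. At 3 h 1 regulator, SRF, was higher in CD47- cells (0.48, SE 0.0652, adjusted p = 4.3e-05) and 4 were lower, beside 23.3% and 23.2% of all genes. At 6 h SRF was again the 1 higher (0.32, SE 0.0653, adjusted p = 0.00119) and 5 were lower, beside 22.8% and 24.5%. SRF fell from 1 h to 6 h in both lines, by 0.58 in WT cells (SE 0.0653, adjusted p = 5.83e-06) and less in CD47- cells, by 0.23 (SE 0.0649, adjusted p = 0.00836). In the difference between the lines in this change 1 of 10 regulators, SRF, was higher and 0 were lower, near the 6.46% and 10.2% of all genes.

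Of 13 MAP kinases and related kinases upstream of AP-1, 12 were tested. Over 20 libraries 3 were higher and 5 lower in CD47- cells, beside 19.8% and 20.6% of all genes, with a median of −0.0597. RPS6KA3, which encodes the kinase RSK2 that phosphorylates FOS, had a mean of 130.2 ± 15.7 CPM in the 10 WT libraries against 69.6 ± 7.58 CPM in the 10 CD47- libraries (SD), and was lower in CD47- cells at 6 h, at −1.06 (SE 0.0768, adjusted p = 8.09e-08). MAPK14, which encodes p38α, was higher at 1 h, by 0.61 (SE 0.0644, adjusted p = 4.34e-06). It did not pass at 3 h (0.16, adjusted p = 0.0525) or at 6 h (−0.02, adjusted p = 0.789). From 1 h to 6 h, 4 rose and 4 fell in WT cells, beside 25.7% and 24.8% of all genes, and 2 rose and 5 fell in CD47- cells, beside 26% and 27%, with medians of 0.0793 and −0.0398.

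Of 17 T cell genes known as AP-1 targets, 8 were tested, and IL2, with at most 8 counts per library, was not among them. From 1 h to 6 h in WT cells 4 fell and 1 rose, beside 24.8% and 25.7% of all genes, with a median of −1.47. In CD47- cells 2 fell and 1 rose, beside 27% and 26%, with a median of −0.286. CD69, an early activation receptor, fell in both lines, by 2.94 in WT (SE 0.291, adjusted p = 1.8e-06) and 3.18 (SE 0.32, adjusted p = 1.76e-06) in CD47- cells, and GZMB, which encodes granzyme B, rose by 3.13 (SE 0.699, adjusted p = 0.00191) and 2.96 (SE 0.952, adjusted p = 0.0177). PLAU, which encodes urokinase, fell by 1.87 in WT cells (SE 0.347, adjusted p = 0.000471). In the difference between the lines in this change 1 of 8 targets, PLAU, was higher and 0 were lower, near the 6.46% and 10.2% of all genes. With CD3+CD28+TSP1 against TSP1 in WT cells 1 target was called, CD69 (2.04, SE 0.285, adjusted p = 0.0184), beside 0.0919% of all genes. In CD47- cells 0 targets were called, beside 0% of all genes. CD69 was at 20.3 to 454.6 CPM in WT and at 5.41 to 67.7 CPM in CD47- cells.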

How the data were processed

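RNA from 20 libraries, 10 per line, was prepared with the TruSeq mRNA kit. Per the submitters' processing notes, the authors used cutadapt 1.18 for trimming, STAR 2.4.2a for alignment to GRCh38 and RSEM 1.3.3 for quantification, on GENCODE version 36 according to the methods. The deposited tables hold expected counts per gene and isoform without normalization, and 2 columns in each that belong to no sample were not used. The authors' ComBat and quantile steps are not part of these files and were not repeated. Whether RSEM used strand is not given in the sources used here. Counts were rounded for edgeR 4.0.16 (R 4.3.3), filtered by filterByExpr per line (minimum count 10, minimum total 15), scaled by TMM and tested by quasi-likelihood with Benjamini-Hochberg adjustment over all genes at 0.05. The lines were compared over all 20 libraries, and treatments, times and interactions in a model of 12 coefficients (4 treatments and 2 time terms per line, 8 residual degrees of freedom). The SE is the log2 fold change divided by the square root of its F statistic. P-values measure the spread between libraries of different conditions, not between cultures.

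Alternatives were DESeq2 1.42.0, voom of limma 3.58.1 after quantile scaling, RLE and upper-quartile factors, no low-count filter, at least 1 CPM in all libraries, blocking on the 10 pairs matched for treatment and time by the labels, the activated or unactivated pairs alone, both TSP1 states pooled, 1 line alone, and each library left out. The deviations of matched libraries from their line means correlated at 0.126 to 0.602 in the 10 pairs. The GC correction (a lowess curve per library with a span of 0.3) and the removal of 2 libraries with high GC balance were added after seeing the data. TPM used transcript lengths of GENCODE version 44, found for 98.8% of isoforms. Tests were tried on simulated data before use. Promoters are from RefSeq (GRCh38.p14). The members and lists were chosen with earlier results of these data known. The genes named are the members, the 3 most like each tested member by Pearson r of line-centred log2 CPM (pseudocount 0.5, mean of at least 1 CPM), and up to 4 of each list by smallest p. Library totals of 16107921 to 31737616 counts set the precision, and intervals for counting error were not needed beyond the limit of 3 counts.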

Additional observations from a re-analysis of the deposited data

Results flagged for a closer look

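In WT cells the library given CD3+CD28+TSP1 at 1 h stood apart from the other 9 for JUNB, at 97.2 CPM with the next library at 39.2 CPM, and for JUND, at 67.3 CPM with the next at 43.9 CPM. These were 2 of 32 gene and group combinations tested for a sample far from the others, of which chance alone would mark about 1 in 20. The same library had the highest GC balance of the WT libraries at 1 h, 0.0773, and both genes have transcripts rich in GC, whose part in the values was not tested.

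The change with time differed between the lines by the interaction test. From 1 h to 3 h the difference between CD47- and WT cells on the log2 scale was 2.452 for FOSB, 0.8565 for FOSL2, 1.378 for JUN and 0.9183 for JUND. From 1 h to 6 h it was 2.298 for FOS, 4.059 for FOSB, 1.437 for FOSL2, 1.419 for JUN and 2.044 for JUNB. The value of JUND from 1 h to 3 h was 0.101 with the GC correction.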

How the results depend on the processing

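Each condition had 1 library, so every p rests on the spread between conditions. The shares of all genes and isoforms given above belong to the main edgeR fits. Counts of members and isoforms under other settings therefore cannot be read against those shares. With edgeR 2 members were called between the lines over all libraries, and DESeq2 called 4, while the activated pairs alone and the unactivated pairs alone gave 1 each. With a block for the matched pairs 3 members were called, and 4 isoforms in place of 1. Without the low-count filter, members called were 3 for CD3+CD28 against untreated in WT and 1 in CD47- cells, 2 for TSP1 against untreated in WT and 3 in CD47- cells, 2 for CD3+CD28+TSP1 against TSP1 in WT and 1 in CD47- cells, and 1 and 4 for the differences between the lines in CD3+CD28+TSP1 against TSP1 and CD3+CD28 against untreated. DESeq2 called 1 member each for CD3+CD28 against untreated in WT and for both of these differences, the WT libraries alone gave 1 for the first and pooling both TSP1 states gave 1 for the difference in CD3+CD28+TSP1 against TSP1. Without the 2 libraries of high GC balance, 0 members were called for CD3+CD28+TSP1 against TSP1 in WT and 2 in place of 4 for the difference between the lines in the change from 1 h to 3 h. With 1 CPM in every library, 6 isoforms in place of 11 were called from 1 h to 6 h in WT cells. Per transcript length the share of the leading FOSL1 isoform differed by 3.1 points in place of −0.761. The cause of these shifts was not tested.

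With 1 library left out, members called ranged from 2 to 5 for the difference between the lines in the change from 1 h to 3 h, with 2 when either the 1 h or the 3 h library of CD3+CD28+TSP1 in WT was the one missing, and from 0 to 1 for CD3+CD28+TSP1 against TSP1 in WT, for CD3+CD28 against untreated in WT and for the difference between the lines in CD3+CD28+TSP1 against TSP1. Isoforms called ranged from 1 to 2 between the lines, and from 8 to 12 in WT and 1 to 4 in CD47- cells from 1 h to 6 h. The share differences ranged from −5.3 to 2.99 points for FOSB, from −12 to 6.84 for FOSL1 and from −7.6 to −1.3 for FOSL2. Fold changes near 0 that crossed 0 were FOS between the lines (−0.0958 to 0.329) and at 3 h (−0.254 to 0.174), JUNB between the lines (−0.424 to 0.0447) and at 3 h (−0.355 to 0.522), FOSL2 from 1 h to 3 h (−0.131 to 0.00173) and FOSB from 1 h to 6 h (−0.0808 to 0.105) in CD47- cells, and FOS for CD3+CD28+TSP1 against TSP1 in CD47- cells (−0.0681 to 0.16).

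Other settings turned JUNB between the lines at 3 h to 0.0595 with voom, 0.0129 with upper-quartile factors and 0.0351 without the 2 libraries. They turned FOSB from 1 h to 6 h in CD47- cells to 0.0234 with upper-quartile factors, 0.0075 with 1 CPM in every library, 0.00348 with that line alone and 0.00197 without the 2 libraries, and FOSL2 from 1 h to 3 h to 0.00195 with upper-quartile factors. FOS between the lines was −0.369 in the activated pairs and −0.0231 with the GC correction, and JUNB was 0.0565 in the unactivated pairs. The GC correction turned JUNB from 1 h to 3 h (−0.238) and to 6 h (−0.162) and JUND from 1 h to 3 h (−0.602) in CD47- cells, and the difference of JUND between the lines in the change from 1 h to 6 h (−0.0545).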
